A study of Mus musculus with 6 samples.

Results

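The semaphorins, plexins, neuropilins, ephrins, Eph receptors, netrins and netrin receptors are the guidance molecules that steer growing axons, and their transcripts were followed here by RNA-seq in the mouse cochlea, the coiled part of the inner ear that serves hearing. The members were all protein-coding genes whose symbol begins with Sema, Plxn, Epha, Ephb, Efna, Efnb, Unc5 or Ntn and carries a class number or letter, with Nrp1, Nrp2, Dcc and Neo1 added. By this rule 66 of the 55769 features in the files were members, namely 20 semaphorins, 11 plexins and neuropilins, 8 ephrins, 14 Eph receptors and 13 netrins and netrin receptors. Unc5cl, a relative of Unc5c, was kept because its symbol meets the rule. Levels are in TPM, a relative transcript abundance that takes account of transcript length, so that levels of different genes can be set side by side. Read depth is unknown.

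There were 3 libraries of Plscr5-/- (knockout) cochleae and 3 of wild-type cochleae, all taken on postnatal day 3. Plscr5 is a gene of the phospholipid scramblase family. The labels used here give no strain, no sex and no description of the knockout allele, and they do not say whether a library came from 1 animal, so the tests reflect the spread between libraries, which may be technical. The comparison asks which transcripts differ when Plscr5 is disrupted, here for the genes of axon guidance.

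As background, semaphorins signal through plexins, and most secreted class 3 semaphorins need neuropilins as the ligand-binding part of the receptor. Ephrins and Eph receptors signal at cell contacts and in both directions, with ephrin-A proteins held by a lipid anchor and ephrin-B proteins spanning the membrane. Netrins attract axons through Dcc and repel them through Unc5 receptors. In the cochlea these families are known for the sorting and bundling of spiral ganglion neurites, the nerve fibres that reach the hair cells.

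Plscr5 itself stood at 4.30, 3.69 and 5.01 TPM in knockout libraries and at 14.53, 12.42 and 9.27 TPM in wild-type libraries, and the groups did not overlap (two-sided exact permutation p = 0.1, the lowest value 3 libraries against 3 allow). In the limma fit its log2 fold change was -1.28 (SE 0.18, limma adjusted p = 0.29), so it did not pass the threshold of 0.05. The cochlear label was checked against marker genes. All 16 hair cell and all 14 supporting cell markers were tested, meaning that they reached at least 1 TPM in at least 3 libraries. Of the 7 marker lists none had a gene listed at 0 in any library. Knockout replicate 1 and wild type replicate 3 stood apart in nerve content. The summed level of 20 neuronal markers was 2108.5, 2008.4 and 1792.8 TPM in knockout libraries and 1629.5, 1831.8 and 1124.0 TPM in wild-type libraries. That of 18 Schwann cell markers, the glia of the nerve, was 2751.8, 2025.8 and 1961.1 TPM in knockout libraries and 1765.2, 1925.0 and 1016.9 TPM in wild-type libraries. Knockout replicate 1 was thus highest and wild type replicate 3 lowest in both sums. The hair cell markers summed to 657.5, 600.6 and 630.1 TPM in knockout libraries and to 676.8, 653.5 and 736.5 TPM in wild-type libraries, with 13 of 16 markers at a negative fold change. The supporting cell markers summed to 7293.9, 7444.5 and 7352.7 TPM in knockout libraries and to 8166.1, 7741.5 and 8731.6 TPM in wild-type libraries, with 13 of 14 at a negative fold change. Of that sum, Tectb alone gave 3586.54, 3828.87 and 3737.61 TPM in knockout libraries and 4254.56, 4001.37 and 4754.05 TPM in wild-type libraries. Among all tested features, 9128 of 17097 had a negative fold change. The supporting cell sum was lower in every knockout library than in any wild-type one, whereas the hair cell sum overlapped at knockout replicate 1 and wild type replicate 2. The part of these sums in the results below was not tested. In bulk tissue, fewer cells of a type and less RNA per cell cannot be told apart.

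The P3 cochlea held transcripts of nearly the whole guidance repertoire. Of 66 members, 64 passed the filter of at least 1 TPM in at least 3 libraries, 45 averaged at least 10 TPM over the 6 libraries, and 9 averaged at least 50 TPM. The members that did not pass were Epha6, with 0.13, 0.13 and 0.07 TPM in knockout libraries and 0.13, 0 and 0 TPM in wild-type libraries, and Unc5cl, between 0.38 and 1.41 TPM. The order of the levels was led by the receptor Plxnb2, at 129.6 TPM over all libraries, followed by the receptor Epha7 (114.9), the ligand Sema3f (100.7) and the netrin receptor Neo1 (82.9). The whole set summed to 1880.5, 1650.1 and 1654.9 TPM in knockout libraries and to 1716.2, 1741.0 and 1750.8 TPM in wild-type libraries, so the knockout libraries lay on both sides of the wild-type ones.

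**Figure D1:**
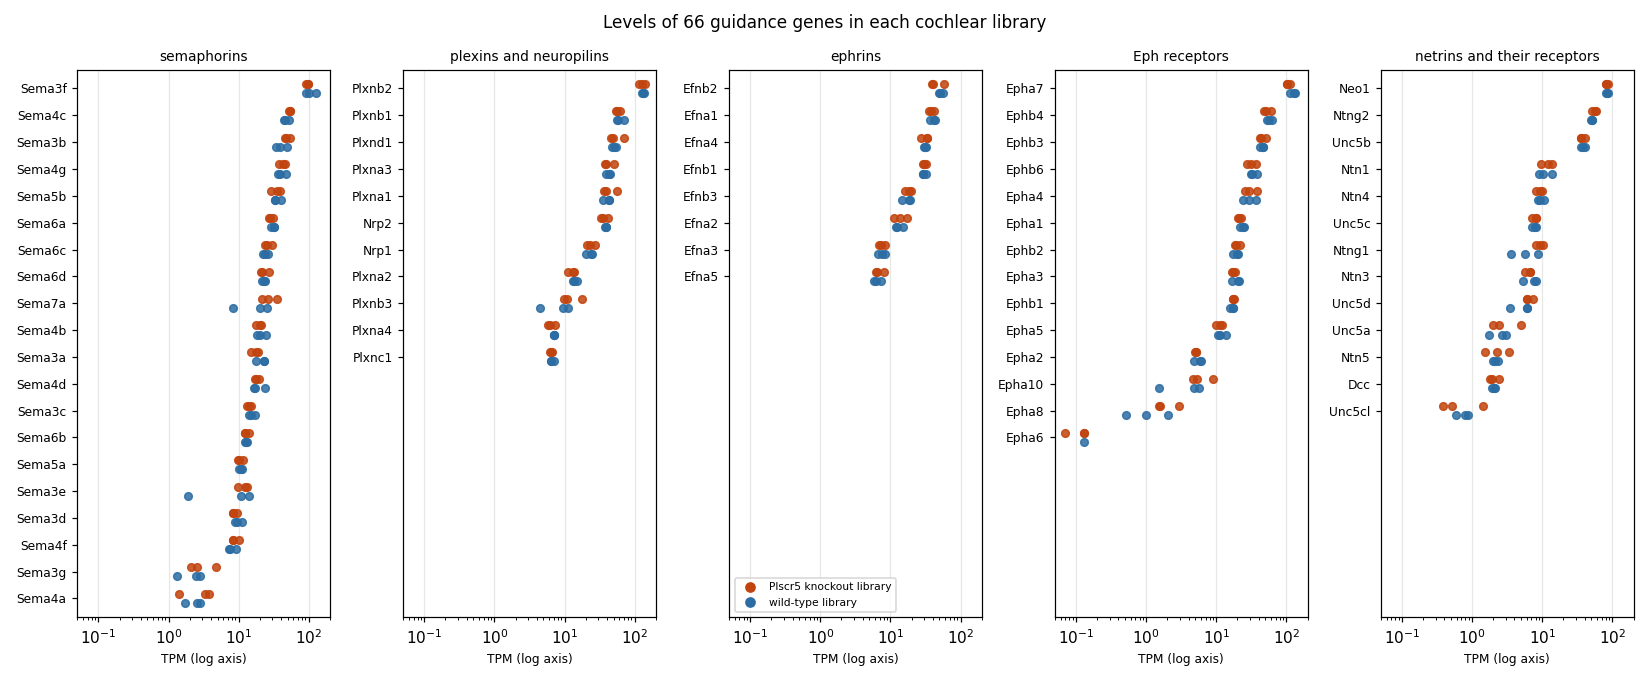
Level of each of the 66 guidance genes in TPM on a log axis, 1 point per library, with knockout libraries drawn above wild-type libraries and genes ordered by mean level within each family; values of 0, which only Epha6 has, are not drawn. Plxnb2, Epha7 and Sema3f lead, and for most genes the points of the genotypes lie over each other, while Sema3e, Sema7a, Plxnb3 and Epha10 have 1 low wild-type point each.

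No member differed between genotypes after adjustment. By limma, 0 of 64 tested members passed an adjusted p of 0.05 over all 17097 tested features, of which 2 passed (0.0117%), and the smallest adjusted p of a member was 0.989. At an unadjusted p under 0.05 there were 2 of 64, Epha7 and Ntng1, beside 684 of all tested features (4.00%). The libraries of the genotypes did not overlap at 2 of 64 members, beside 9.33% of all tested features. Both of these, Sema4c and Ntng2, were higher in the knockout, a direction seen in 4.60% of all tested features. For each of these counts the members' share lay near or under the background share. Both counts moved when single libraries were left out, which changes the background as well. At an unadjusted p under 0.05 there were 7 members without wild type replicate 2 (6.22% of all features), 2 without knockout replicate 1 (1008 of 16807 features), 1 without wild type replicate 1 (3.22%), 1 without wild type replicate 3 (4.63%) and 0 without knockout replicate 2 (2.10%) or knockout replicate 3 (3.06%). The members without overlap numbered 15 without knockout replicate 1 (25.9% of all features), 13 without wild type replicate 2 (21.9%), 8 without wild type replicate 3 (19.1%), 6 without knockout replicate 3 (17.6%), 6 without wild type replicate 1 (16.4%) and 2 without knockout replicate 2 (14.5%). None of the members passed the adjusted threshold in any of these settings.

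Log2 fold changes (differences of mean log2(TPM + 1), knockout minus wild type) had a median of 0.01 over the 64 members and of -0.01 over all tested features. They ran from -0.27 for Sema3a to 0.69 for Sema7a, with 35 members above and 29 below 0. At 51 members both ends of the 95% confidence interval stayed inside 1.5-fold, which was so for 72.4% of all tested features. At 57 members they stayed inside 2-fold, which was so for 91.5% of all tested features. The 7 whose interval reached 2-fold were Sema3e, Sema3g, Sema7a, Plxnb3, Epha8, Epha10 and Ntng1, so at these genes a difference of that size lay within the error of 3 libraries per genotype.

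**Figure D2:**
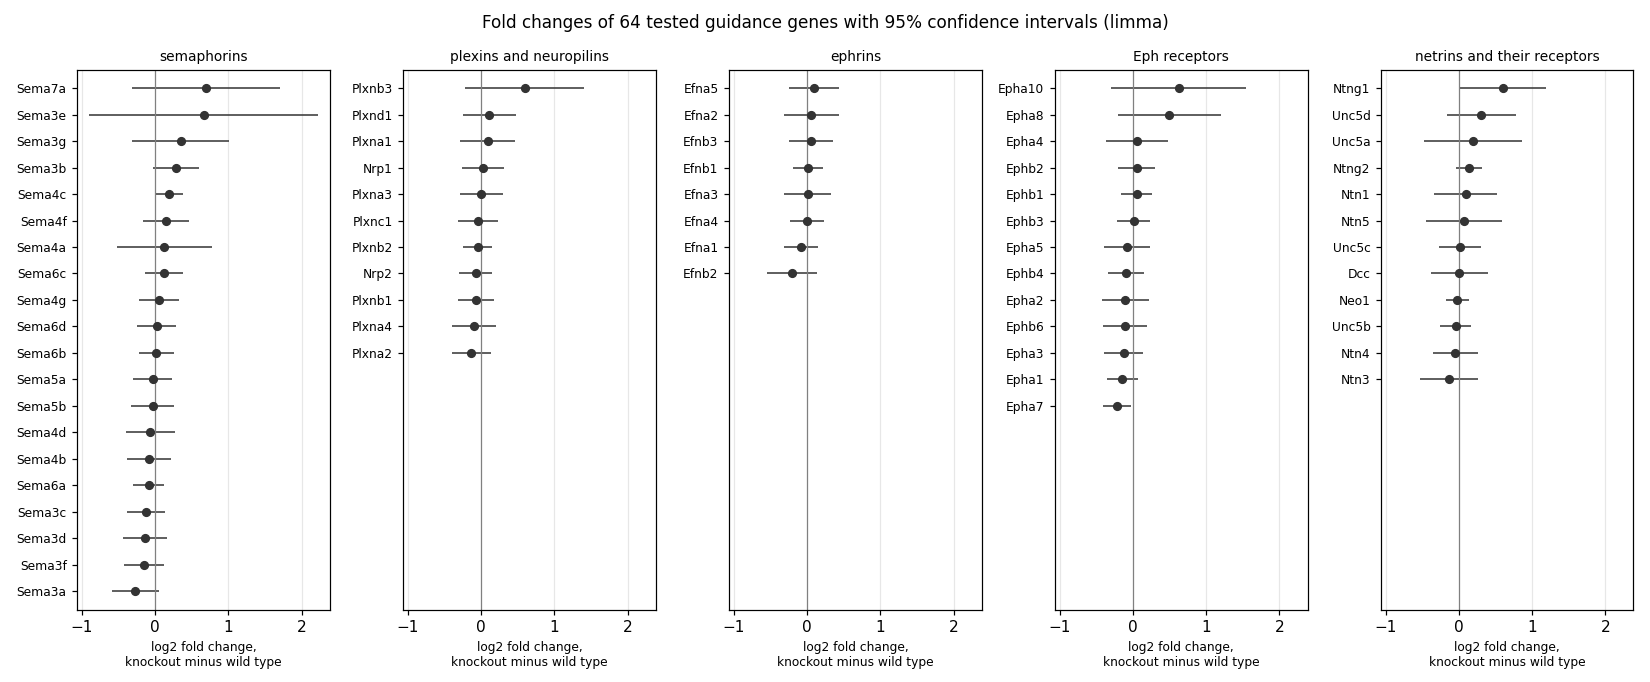
Log2 fold change (mean log2(TPM + 1), knockout minus wild type) of the 64 tested guidance genes with limma's 95% confidence intervals, by family and ordered by size. Only the intervals of Epha7 (below 0) and Ntng1 (above 0) leave out 0 before adjustment, and the widest interval, -0.91 to 2.23, belongs to Sema3e.

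Promoters are shown for the members with a within-genotype SD above 0.5 on the log2 scale. These were the 4 with the widest spread between libraries, Sema3e, Epha10, Sema7a and Plxnb3. All 4 had their lowest value in wild type replicate 3, as did 20 of the 64 tested members, these 4 included. Each line gives the 200 bases before the RefSeq start (GRCm38.p6, all on the plus strand), 5′ to 3′, at chr5:14025076-14025275, chr4:124881585-124881784, chr9:57939912-57940111 and chrX:73756903-73757102. Capitals mark matches, on either strand, to the 5 motifs searched, which were the TATA box TATAAA, the CAAT box given by its letters CCAAT, the GC box GGGCGG, the E-box CAGCTG and the Sox-type motif ACAAAG, which do not overlap each other in these windows.
Sema3e: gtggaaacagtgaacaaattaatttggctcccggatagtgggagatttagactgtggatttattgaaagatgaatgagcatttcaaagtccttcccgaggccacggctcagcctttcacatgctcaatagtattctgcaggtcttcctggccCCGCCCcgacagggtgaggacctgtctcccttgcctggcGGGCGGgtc
Epha10: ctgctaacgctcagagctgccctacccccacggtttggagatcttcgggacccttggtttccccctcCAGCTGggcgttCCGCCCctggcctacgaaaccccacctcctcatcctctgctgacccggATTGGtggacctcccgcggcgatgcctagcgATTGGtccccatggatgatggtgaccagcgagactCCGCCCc
Sema7a: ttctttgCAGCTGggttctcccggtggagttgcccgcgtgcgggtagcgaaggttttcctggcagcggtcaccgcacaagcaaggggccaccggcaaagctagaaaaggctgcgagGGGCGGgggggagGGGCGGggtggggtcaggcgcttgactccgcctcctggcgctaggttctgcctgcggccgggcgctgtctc
Plxnb3: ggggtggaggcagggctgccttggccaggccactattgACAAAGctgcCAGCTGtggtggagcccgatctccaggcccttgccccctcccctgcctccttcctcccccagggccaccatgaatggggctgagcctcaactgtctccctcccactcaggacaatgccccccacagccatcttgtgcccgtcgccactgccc

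No motif was found in all 4 windows. GGGCGG was in those of Sema3e, Epha10 and Sema7a, CAGCTG in those of Epha10, Sema7a and Plxnb3, CCAAT in that of Epha10, and ACAAAG in that of Plxnb3. Windows on chromosome 18, which holds Dcc and Sema6a, were left out for the members but kept in the sets compared with them. With that, 71 such windows in RefSeq matched 57 of the 66 members. Of these 74.6% held GGGCGG, beside 54.0% of the windows of tested protein-coding genes and 31.0% of all windows, and 1.41% held TATAAA, beside 4.83% and 9.96%. Shares for CAGCTG were 12.7%, beside 10.2% and 10.9%, for CCAAT 28.2%, beside 31.1% and 29.3%, and for ACAAAG 9.86%, beside 9.59% and 13.3%. Base composition moved with the GC box, since the median GC content was 65.5% in member windows, 61.0% in those of tested protein-coding genes and 53.0% in all windows. These are matches of letters, not binding sites.

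Among the semaphorins, 11 of 20 had a positive and 9 a negative fold change, with a median of 0.02, and 0 passed the adjusted threshold (0 also at an unadjusted p under 0.05). Their sum was 537.1, 495.1 and 496.5 TPM in knockout libraries and 475.5, 504.6 and 513.8 TPM in wild-type libraries. Sema3f, a secreted ligand of neuropilin-2 that repels spiral ganglion neurites in the mouse cochlea, was the most abundant ligand of all families. It stood at 97.87, 90.92 and 96.39 TPM in knockout libraries and at 90.32, 102.66 and 126.18 TPM in wild-type libraries. The groups overlapped and wild type replicate 3 was highest. The log2 fold change of Sema3f was -0.15 (SE 0.12), and it was -0.019 without that library. The highest class 4 member, Sema4c, a membrane-bound ligand of plexin-B2, stood at 54.72, 52.37 and 54.74 TPM in knockout libraries and at 43.87, 46.31 and 51.59 TPM in wild-type libraries. All knockout values of Sema4c lay above all wild-type values, the closest being knockout replicate 2 and wild type replicate 3. Its log2 fold change was 0.19 (SE 0.08, adjusted p = 0.989), and it lay between 0.14 and 0.25 when single libraries were left out. Its exons overlap those of D430040D24Rik on the other strand, and the strand setting of the counting is not given in the sources used here, so the value is uncertain.

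Sema3b, another neuropilin ligand, stood at 54.84, 47.98 and 46.55 TPM in knockout libraries and at 39.30, 49.41 and 34.64 TPM in wild-type libraries. Only wild type replicate 2 reached into the knockout range, and the log2 fold change was 0.28 (SE 0.13, adjusted p = 0.989). It was 0.17 without wild type replicate 3, the lowest library, and 0.099 without that library and knockout replicate 1. Sema3a, the founding class 3 ligand and a repellent read by neuropilin-1, went the other way. It stood at 15.17, 17.88 and 19.20 TPM in knockout libraries and at 22.89, 17.72 and 23.35 TPM in wild-type libraries, where again wild type replicate 2 overlapped (log2 fold change -0.27, SE 0.14, adjusted p = 0.989). Sema5b, a transmembrane semaphorin that signals through plexin-A1 and plexin-A3, did not separate the genotypes, at 39.25, 35.41 and 29.44 TPM in knockout libraries and 33.17, 33.43 and 39.75 TPM in wild-type libraries. The secreted class 3 summed to 199.8 ± 8.3 TPM in knockout libraries and 205.0 ± 9.5 TPM in wild-type libraries (SD, n = 3 each). The membrane-bound class 4 summed to 145.6 ± 6.6 TPM in knockout libraries and 138.4 ± 16.6 TPM in wild-type libraries. Class 5 summed to 45.2 ± 5.9 TPM in knockout libraries and 46.2 ± 3.3 TPM in wild-type libraries, and class 6 to 91.4 ± 9.4 TPM in knockout libraries and 90.4 ± 2.6 TPM in wild-type libraries. In each of these classes the genotypes differed by less than the larger SD.

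Sema7a, the lipid-anchored class 7 semaphorin that binds plexin-C1 and integrins, had the largest log2 fold change of the members that were tested, but also a wide spread. Sema7a, whose promoter window holds a pair of GC boxes, stood at 35.25, 26.17 and 21.22 TPM in knockout libraries and at 19.93, 25.58 and 8.41 TPM in wild-type libraries. The genotypes overlapped, and the highest and the lowest value belonged to the libraries that were extreme in nerve markers. Its log2 fold change of 0.69 (SE 0.41, adjusted p = 0.989) was 0.25 without wild type replicate 3 and 0.06 without that library and knockout replicate 1. The other 14 semaphorins, Sema3e included, had log2 fold changes between -0.14 and 0.66, and their mean levels lay between 2.59 TPM (Sema4a) and 41.5 TPM (Sema4g).

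Of the plexins and neuropilins, the receptors of the semaphorins, 5 of 11 had a positive and 6 a negative fold change (median -0.04), and 0 passed at either the adjusted or the unadjusted threshold. Plxnb2, the receptor of Sema4c and the most abundant member, stood at 139.88, 114.81 and 127.81 TPM in knockout libraries and at 126.27, 135.16 and 133.36 TPM in wild-type libraries. Plxnb1, the Sema4d receptor, stood at 62.40, 56.01 and 53.99 TPM in knockout libraries and at 55.59, 57.24 and 69.65 TPM in wild-type libraries. Both overlapped between genotypes, with log2 fold changes of -0.05 for Plxnb2 and -0.08 for Plxnb1. Plxnd1, the receptor of Sema3e best known from blood vessels, stood at 71.31, 45.88 and 49.91 TPM in knockout libraries and at 50.30, 53.56 and 47.71 TPM in wild-type libraries, so that knockout replicate 1 alone lay above the rest. Plxna1 and Plxna3, which join neuropilins in class 3 semaphorin receptors, had the same library on top. Plxna1 stood at 55.29, 39.29 and 36.49 TPM in knockout libraries and at 43.03, 43.31 and 35.05 TPM in wild-type libraries, and Plxna3 at 51.23, 39.23 and 37.65 TPM in knockout libraries and at 38.61, 44.62 and 43.67 TPM in wild-type libraries. Without knockout replicate 1 the log2 fold changes of Plxnd1, Plxna1 and Plxna3 were -0.08, -0.09 and -0.13, against 0.11, 0.09 and 0.0029 with it, and none was called either way.

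The neuropilins overlapped between genotypes. Nrp1, which binds Sema3a, stood at 27.01, 23.24 and 20.67 TPM in knockout libraries and at 24.10, 24.76 and 20.50 TPM in wild-type libraries. Nrp2, which binds Sema3f, stood at 41.24, 35.35 and 32.89 TPM in knockout libraries and at 38.76, 37.30 and 39.02 TPM in wild-type libraries. The 95% confidence intervals of their log2 fold changes were -0.26 to 0.31 for Nrp1 and -0.30 to 0.15 for Nrp2. Plxnb3, a receptor of Sema5a, was the exception among plexins in its spread, with 17.68, 10.73 and 9.93 TPM in knockout libraries and 9.52, 11.25 and 4.41 TPM in wild-type libraries (log2 fold change 0.59, SE 0.34, adjusted p = 0.989). Leaving out wild type replicate 3 gave 0.24, and leaving out knockout replicate 1 as well gave -0.0037.

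Among the ephrins 5 of 8 had a positive and 3 a negative fold change (median 0.01), and 0 passed at either threshold. Efnb2, a transmembrane ligand through which spiral ganglion axons meet Epha4 of the otic mesenchyme in the mouse, was the most abundant ephrin. It stood at 57.12, 39.19 and 40.52 TPM in knockout libraries and at 57.03, 50.28 and 48.79 TPM in wild-type libraries. Here 2 knockout libraries lay below all wild-type ones and knockout replicate 1 above them, and the log2 fold change of -0.20 (SE 0.15) was -0.37 without knockout replicate 1, in which setting its unadjusted limma p was under 0.05 and 0 members passed the adjusted threshold. Efna1, a lipid-anchored ligand of Epha2, stood at 35.40, 38.48 and 41.49 TPM in knockout libraries and at 41.67, 36.81 and 43.88 TPM in wild-type libraries. Efna4, at 27.11, 33.02 and 33.71 TPM in knockout libraries and 31.96, 30.55 and 31.00 TPM in wild-type libraries, had a log2 fold change of -0.0012 (SE 0.10). Its exons overlap a gene on the other strand, 4731419I09Rik, so its level is uncertain.

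Efnb3, a transmembrane ephrin best known from the midline of the mouse spinal cord, stood at 16.05, 18.23 and 19.63 TPM in knockout libraries and at 14.61, 18.21 and 19.11 TPM in wild-type libraries. Efna5, a ligand of several EphA receptors, was the least abundant ephrin, at 6.49, 8.15 and 6.22 TPM in knockout libraries and 6.12, 5.90 and 7.25 TPM in wild-type libraries. Neither separated the genotypes. The ephrin-A genes together were about as abundant as the ephrin-B genes. Their summed ratio was 0.895, 1.16 and 1.10 in knockout libraries and 1.01, 0.928 and 1.05 in wild-type libraries.

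Of 13 tested Eph receptors, 6 had a positive and 7 a negative fold change (median -0.08). Epha7, a receptor of ephrin-A ligands present in developing spiral ganglion neurons of the mouse, had the smallest p of the members. It stood at 113.83, 101.32 and 103.07 TPM in knockout libraries and at 130.48, 113.16 and 127.78 TPM in wild-type libraries. The groups met only where knockout replicate 1 slightly exceeded wild type replicate 2. Epha7 had a log2 fold change of -0.22 (SE 0.08, interval -0.41 to -0.03), which was not called (limma adjusted p = 0.989). Its p ranked 364 among the tested features. The fold change kept its sign whichever library was left out, between -0.28 and -0.18, and was -0.25 without knockout replicate 1 and wild type replicate 3.

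Epha4, which bundles spiral ganglion axons from the mesenchyme side in the mouse, stood at 37.74, 29.65 and 25.60 TPM in knockout libraries and at 36.32, 29.15 and 23.76 TPM in wild-type libraries. The ranges nearly coincided, and the 95% confidence interval of the log2 fold change was -0.36 to 0.48. Among the EphB receptors, Ephb4, the ephrin-B2 receptor of veins, stood at 60.56, 48.18 and 50.82 TPM in knockout libraries and at 52.27, 56.81 and 61.29 TPM in wild-type libraries. Ephb3 stood at 51.06, 43.70 and 41.50 TPM in knockout libraries and at 42.41, 45.53 and 46.92 TPM in wild-type libraries. Ephb2, which is needed for normal inner ear fluid in the mouse, stood at 21.93, 18.38 and 18.78 TPM in knockout libraries and at 19.58, 20.15 and 17.16 TPM in wild-type libraries. None of the EphB genes separated the genotypes.

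Epha1 stood at 21.03, 20.33 and 22.13 TPM in knockout libraries and at 23.98, 21.95 and 24.68 TPM in wild-type libraries (log2 fold change -0.15, SE 0.09), with knockout replicate 3 inside the wild-type range. Its exons overlap those of Zyx on the other strand, as those of Ephb4 overlap Zan, of Epha10 1700125G02Rik, of Plxnb1 Gm7628 and of Plxna1 Gm26811, and those of Nrp1 hold Mir1903 on the same strand, so these levels are uncertain likewise. Epha8 was low, at 2.92, 1.53 and 1.57 TPM in knockout libraries and 0.98, 2.03 and 0.51 TPM in wild-type libraries (log2 fold change 0.50, SE 0.30). That value was 0.06 without knockout replicate 1 and wild type replicate 3. EphA transcripts exceeded EphB transcripts in every library, with a summed ratio of 1.16, 1.21 and 1.22 in knockout libraries and 1.47, 1.15 and 1.23 in wild-type libraries. Wild type replicate 1 stood highest in this ratio and the other libraries overlapped between genotypes. Most of the EphA sum was Epha7 in every library. It gave, for example, 101.32 of 191.79 TPM in knockout replicate 2 and 127.78 of 214.44 TPM in wild type replicate 3.

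Among netrins and their receptors, 8 of 12 tested members had a positive and 4 a negative fold change (median 0.04). Neo1, the receptor of netrins and of repulsive guidance molecules, had the smallest spread within genotypes on the log2 scale, at 85.37, 81.41 and 79.82 TPM in knockout libraries and 83.63, 80.82 and 86.30 TPM in wild-type libraries. Its log2 fold change was -0.02 with a 95% confidence interval of -0.18 to 0.13. Dcc, the attractive netrin receptor, was near the lower end of the levels, at 1.82, 2.41 and 1.92 TPM in knockout libraries and 2.12, 2.06 and 1.91 TPM in wild-type libraries. Neo1 thus made up nearly all of the summed level of these sister receptors, which averaged 84.2 ± 2.8 TPM over knockout libraries and 85.6 ± 2.7 TPM over wild-type libraries (SD, n = 3 each). Of the repulsive receptors, Unc5b led at 40.40, 35.47 and 35.34 TPM in knockout libraries and at 40.38, 35.79 and 38.57 TPM in wild-type libraries. The ligand Ntn1, which shapes the semicircular canals of the mouse ear, stood at 9.57, 11.93 and 13.74 TPM in knockout libraries and at 8.89, 10.24 and 13.95 TPM in wild-type libraries, with overlapping groups.

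The netrin-G genes encode lipid-anchored proteins that bind synaptic netrin-G ligands and not Dcc, and both had positive fold changes. Ntng1 stood at 10.29, 9.17 and 8.15 TPM in knockout libraries and at 5.73, 8.76 and 3.60 TPM in wild-type libraries. Only wild type replicate 2 fell within the knockout range, and wild type replicate 3 was lowest. The log2 fold change of Ntng1 was 0.60 (SE 0.26, adjusted p = 0.989), and it was 0.33 without wild type replicate 3. Ntng2 stood at 58.57, 51.91 and 56.38 TPM in knockout libraries and at 49.45, 50.88 and 51.00 TPM in wild-type libraries, with no overlap (log2 fold change 0.14, SE 0.08, adjusted p = 0.989). Its exons overlap those of 6530402F18Rik on the same strand, so its share of the reads is uncertain. The summed netrin-G level was 68.9, 61.1 and 64.5 TPM in knockout libraries and 55.2, 59.6 and 54.6 TPM in wild-type libraries, a sum chosen for mention after its values were seen.

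**Figure D3:**
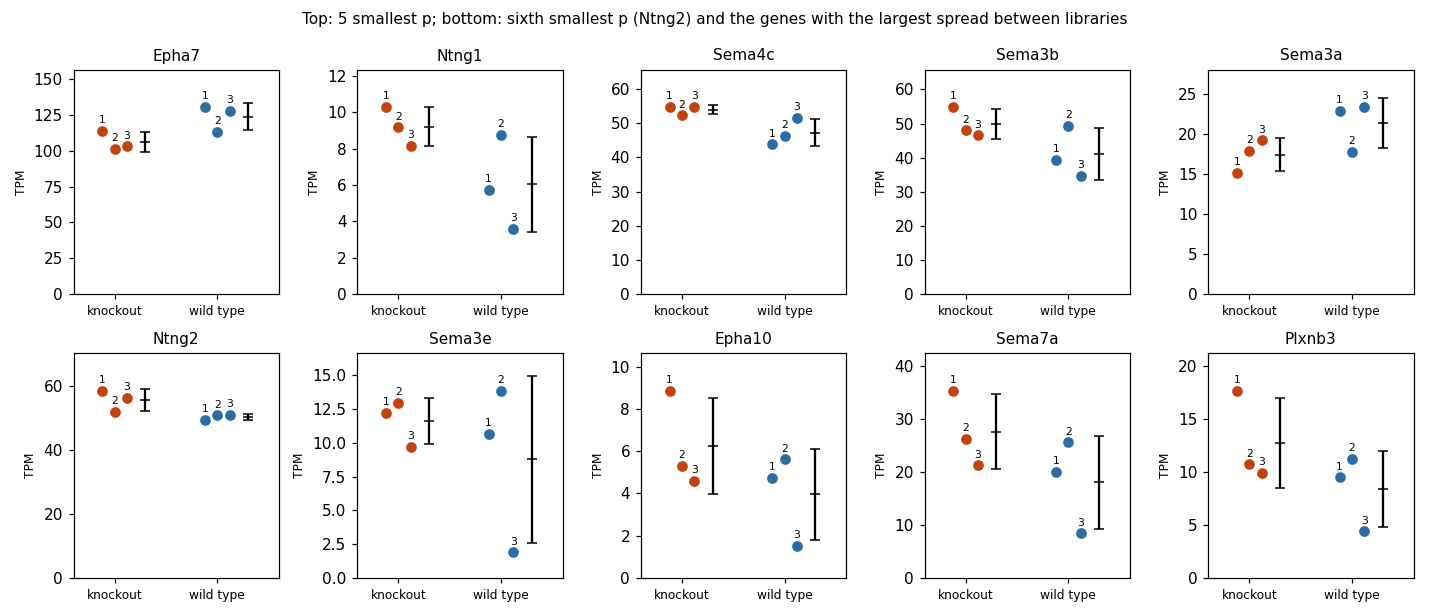
TPM of 10 guidance genes in each library, knockout left of wild type, with the replicate number above each point and the mean ± SD (n = 3) beside the points. The upper row and Ntng2 at the lower left hold the 6 genes with the smallest p, of which Sema4c and Ntng2 do not overlap between genotypes. Sema3e, Epha10, Sema7a and Plxnb3 each have their lowest value in wild type replicate 3.

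Many members had their extreme values in the same libraries. Knockout replicate 1 held the highest of the 6 values at 30 of 64 tested members (46.9%), beside 25.9% of all tested features, and wild type replicate 3 the lowest at 20 of 64 (31.2%), beside 20.9%. Both were true at 16 members (25.0%), beside 9.21% of all features. Wild type replicate 3 was under 50% of the mean of the other wild-type libraries at 6 members (9.38%), beside 4.82% of all features. These were Sema3e at 15.5% of that mean, Epha10 at 29.2%, Epha8 at 33.9%, Sema7a at 37.0%, Plxnb3 at 42.5% and Ntng1 at 49.7%. The neuronal marker sum of that library was 64.9% of the mean of the other wild-type libraries and its Schwann cell marker sum 55.1%, while the hair cell, supporting cell, otic mesenchyme and endothelial sums were between 106.2% and 110.7% and the macrophage sum was 98.4%. That library was the lowest at 18 of 20 neuronal and 15 of 18 Schwann cell markers. The neuronal sum held abundant markers that fell little or not at all there, and many other markers fell further than the sum. Uchl1 stood at 367.39, 376.92 and 341.37 TPM in wild-type libraries, and Isl1 at 217.93, 206.96 and 244.91 TPM. Nefh stood at 39.25, 48.96 and 6.33 TPM in the same libraries, and Stmn3 at 106.36, 138.48 and 22.31 TPM. The part of nerve content in the levels of the 6 guidance genes was not tested.

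Sema3e, the plexin-D1 ligand, and Epha10, an Eph receptor without kinase activity, were taken up here after their values were seen. Sema3e stood at 12.23, 12.97 and 9.72 TPM in knockout libraries and at 10.65, 13.85 and 1.90 TPM in wild-type libraries, and its within-genotype spread ranked 233 among the 17097 tested features. Its log2 fold change of 0.66 (SE 0.63) was -0.07 without wild type replicate 3. Epha10 stood at 8.86, 5.31 and 4.61 TPM in knockout libraries and at 4.73, 5.61 and 1.51 TPM in wild-type libraries (log2 fold change 0.63). That value was 0.38 without knockout replicate 1, 0.19 without wild type replicate 3 and -0.049 without both.

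Other members went the opposite way in the same library. Wild type replicate 3 was the highest at 15 of 64 members (23.4%), which is near the 21.6% of all tested features. Among them were Ntn1 at 145.8% of the mean of the other wild-type libraries, Sema4d at 140.5%, Sema3f at 130.8%, Sema4b at 128.1%, Sema4g at 124.8% and Plxnb1 at 123.5%. The guidance genes thus did not all shift one way in that library, and neither did the tested features at large. Members had long transcripts, and 37 of 64 had one over 4605 bases, as did 4184 of 16747 tested features with a known length. Among those 4184 features knockout replicate 1 was highest at 31.3% and wild type replicate 3 lowest at 20.1%. The part of transcript length in these counts was not tested.

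**Figure D4:**
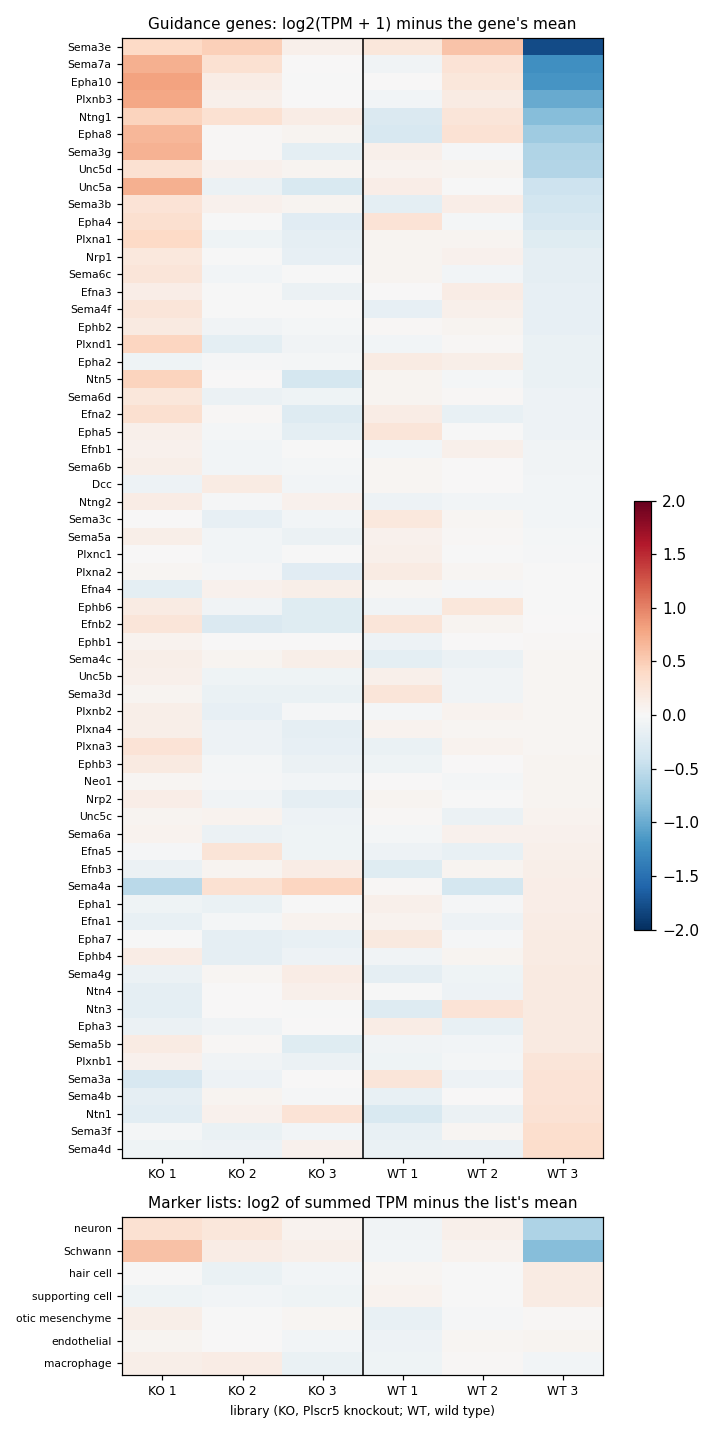
Heat map of log2(TPM + 1) minus each gene's mean over the 6 libraries for the 64 tested guidance genes, ordered by wild type replicate 3, above the log2 of the summed level of 7 marker lists minus its mean; red is above and blue below the mean. Sema3e, Sema7a, Epha10 and Plxnb3 have their lowest value in wild type replicate 3, as do the neuronal and Schwann cell sums, while Sema3f and Sema4d are highest there.

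Genes that act beside or downstream of the guidance receptors were counted in the same fit. Of 16 other ligands and coreceptors, all tested, 6 had a positive and 10 a negative fold change (median -0.05), and of 52 tested among 53 cytoplasmic effectors 24 had a positive and 28 a negative one (median -0.01). By limma 0 of these 68 passed the adjusted threshold and 2 had an unadjusted p under 0.05, which are Nrcam and Mical1, beside 4.00% of all tested features. Nrcam, a cell adhesion molecule that associates with neuropilins, stood at 47.98, 44.80 and 45.56 TPM in knockout libraries and at 60.93, 54.61 and 60.48 TPM in wild-type libraries. The groups did not overlap, and the log2 fold change of Nrcam was -0.34 (SE 0.08, adjusted p = 0.989). Flrt3 and Flrt2, ligands of Unc5 receptors, had log2 fold changes of -0.24 and -0.25. Flrt2 stood at 32.60, 26.71 and 28.06 TPM in knockout libraries and at 38.91, 29.61 and 36.48 TPM in wild-type libraries, and wild type replicate 2 lay inside the knockout range. Flrt3 stood at 14.56, 14.69 and 12.31 TPM in knockout libraries and at 17.81, 15.08 and 16.68 TPM in wild-type libraries, again without overlap.

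Mical1, an enzyme that oxidises actin downstream of plexins, stood at 35.47, 35.72 and 37.56 TPM in knockout libraries and at 28.91, 33.39 and 28.98 TPM in wild-type libraries. All knockout values lay above all wild-type values, with a log2 fold change of 0.25 (SE 0.09, adjusted p = 0.989). Fyn, a kinase downstream of semaphorin receptors, stood at 59.07, 49.95 and 46.75 TPM in knockout libraries and at 42.89, 47.83 and 33.93 TPM in wild-type libraries. Crmp1, which mediates the response to Sema3a, had a log2 fold change of 0.63, and Fyn one of 0.32. Without wild type replicate 3 these were 0.31 for Crmp1 and 0.19 for Fyn. Crmp1 stood at 40.63, 36.67 and 31.86 TPM in knockout libraries and at 24.69, 33.90 and 14.43 TPM in wild-type libraries, with its lowest value, as in Fyn, in wild type replicate 3. Over all 68 of these genes the groups did not overlap at 5 (Mical1 and Rras with higher, Nrcam, Flrt3 and Pak3 with lower knockout values), beside the 9.33% of all tested features given above.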

How the data were processed

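RNA-seq of 6 cochlear libraries was used, 3 per genotype, with groups taken from the genotype field. The labels' extraction text names a Pou4f3 line that is listed for no sample, so whether any animal carried it is unknown. The deposited values are TPM made by the authors, read as such from the values, since libraries sum to about 1000000. Per the submitters' processing notes, DESeq2 and the build mm8 were named, with no role given. Neither aligner nor quantifier is named in the sources used here. Symbols and biotypes came from the GENCODE annotation of GRCm38, which may not be the authors' build, and promoters from RefSeq.

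The 17097 features that reached 1 TPM in 3 or more libraries were tested on log2(TPM + 1) with limma 3.58.1 in R 4.3.3 (intensity trend, robust), with Benjamini-Hochberg adjustment over all of them at 0.05. TPM keeps no read depth, so no counting interval can be given. The genes described singly were the 3 most abundant tested members per family, the 10 with the smallest p and members with a described part in the cochlea, beside the 3 pathway genes per list with the smallest p. Sema3e and Epha10 were added after their values were seen. The members and lists were chosen with earlier results of these data known. Alternatives were other scalings, filters, pseudocounts, variance settings, a feature restriction, a replicate block and libraries left out.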

Additional observations from a re-analysis of the deposited data

How the results depend on the processing

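Leaving out knockout replicate 1 and wild type replicate 3 together was added after the data were seen; every other alternative was planned. The count of members past the adjusted threshold was 0 in all 17 alternatives, as was that of the other pathway genes, and Plscr5 kept its direction without a call. The count with an unadjusted p under 0.05 was 2 in the main fit (4.00% of all features). With median-of-ratios scaling it was 3 (4.31%). It was 1 with no filter (3.31%), with a pseudocount of 0.1 (3.91%) or 0.5 (3.96%) and without robust moderation (4.05%). Without the variance trend it was 0 (4.04%), and with the replicate block 6 (7.31%). With libraries left out it lay between 0 and 7, and it was 6 without both knockout replicate 1 and wild type replicate 3 (11.8%). In the labels used here nothing but the number links same-numbered libraries. The correlations of their deviations from the genotype means were 0.188, -0.0546 and 0.242. Those between libraries of different numbers ran from -0.269 to 0.126. With 3 libraries per genotype these correlations cannot decide whether libraries were paired, and the replicate block is given only as an alternative. The members without overlap, 2 in number, were 4 with median-of-ratios scaling (10.1% of all features), 3 without mitochondrial and haemoglobin genes (9.72%) and 2 to 33 with libraries left out, where fewer libraries make separation easier: without knockout replicate 1 there were 15 (all features 25.9%), and without both added libraries 33 (all features 47.1%). The median log2 fold change of the members lay between -0.061 and 0.018 with libraries left out. Of 542 checks on the 32 members described singly, without Sema3e and Epha10, 505 kept direction and call and 37 changed sign, none of them called. Sema3e and Epha10, not counted there, also changed sign. The log2 fold change was -0.07 for Sema3e without wild type replicate 3, and -0.049 for Epha10 without that library and knockout replicate 1. With median-of-ratios scaling Efna4 was 0.0093. With libraries left out the log2 fold changes of genes that changed sign ranged from -0.078 to 0.059 for Dcc, -0.15 to 0.028 for Efna1, -0.057 to 0.095 for Efna4, -0.0091 to 0.21 for Efna5, -0.056 to 0.20 for Efnb3, -0.23 to 0.21 for Epha4, -0.092 to 0.096 for Ephb2, -0.075 to 0.071 for Ephb3, -0.15 to 0.12 for Nrp1, -0.038 to 0.39 for Ntn1, -0.18 to 0.21 for Plxna1, -0.13 to 0.085 for Plxna3, -0.14 to 0.024 for Plxnb1, -0.12 to 0.023 for Plxnb2, -0.0037 to 0.83 for Plxnb3, -0.11 to 0.24 for Plxnd1 and -0.13 to 0.076 for Sema5b. The intervals given hold the differences that fit the values of 3 libraries per genotype at unknown depth, and they are not limits of detection. Plscr5, at a log2 fold change of -1.28 (SE 0.18), was itself not called.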
